A study of Mus musculus with 18 samples.

Results

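Aminoacyl-tRNA synthetases were followed in 18 mouse RNA-seq libraries as 33 genes of the 54838 in the deposited count table: 19 that encode cytosolic enzymes and 14 that encode mitochondrial ones. Members were taken from a list of symbols, matched to Ensembl identifiers through the GENCODE M21 annotation; Lars2 was left out because its counts behave like those of ribosomal RNA. All 33 were found, and all 33 passed the filter on low counts with 14181 genes in all. The study profiled polysomes, the mRNAs that carry several ribosomes and sediment deep in a sucrose gradient, beside total RNA of the same extracts. Every group came from wild-type C57BL/6 mice, and each had 3 libraries. LY6G cells (sorted as Cd11b high, Ly6G high, Ly6C intermediate) and LY6C cells (Cd11b high, Ly6G negative, Ly6C high) were myeloid-derived suppressor cells (MDSCs), made by differentiating bone marrow in culture for 5 days. They were sorted, plated, and taken the next day after cycloheximide, which holds ribosomes on mRNA. The bone marrow (BM) groups were flushed from femurs of 3 mice and freed of red cells by lysis, without culture or sorting. The mitochondrial group counts the genes that act only there: Gars and Kars each encode both the cytosolic and the mitochondrial enzyme and were counted as cytosolic.

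Each synthetase joins 1 amino acid to its tRNA, the step that sets which residue a codon gives. Animal cells keep 2 sets of these enzymes, both encoded in the nucleus and named alike except for the suffix that marks the mitochondrial one; the mitochondrial set serves only the few proteins encoded by mitochondrial DNA. Several cytosolic enzymes sit in the multi-synthetase complex on the scaffold proteins Aimp1, Aimp2 and Eef1e1. When uncharged tRNA builds up, the kinase GCN2 (Eif2ak4) phosphorylates the initiation factor eIF2, and the transcription factor ATF4, whose mRNA is then better translated, raises many genes of amino acid supply, a number of cytosolic synthetase genes among them.

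Since ATF4 targets include cytosolic synthetase genes, the members' start regions were searched for the C/EBP-ATF response element, through which ATF4 acts on its targets. The letters searched were TGATGNAA on both strands, in the 300 bases from 250 before to 50 after each start site (RefSeq, build GRCm38.p6). Of the 33 members, 24 had an entry, 12 of each class. The letters were present in 5 of the 12 cytosolic genes with an entry, Aars, Gars, Iars, Tars and Yars, and in 0 of the 12 mitochondrial ones; 4.51% of all 27025 genes in the table held them. Cars, Hars, Lars, Nars, Rars, Vars, Wars, Hars2 and Pars2 had no entry. The matches lay 112 bases before and 9 bases after the start site in Aars, 30 bases before it in Gars, 15 before it in Tars, and 7 and 3 after it in Iars and Yars. A match is a description of letters, and no binding was measured here. The windows of Aars and Gars are shown because both genes also passed the test for higher polysomal RNA in LY6C cells than in BM; capitals mark the matches, which read on the reverse strand in both.
Aars, chr8:111033592-111033891, + strand: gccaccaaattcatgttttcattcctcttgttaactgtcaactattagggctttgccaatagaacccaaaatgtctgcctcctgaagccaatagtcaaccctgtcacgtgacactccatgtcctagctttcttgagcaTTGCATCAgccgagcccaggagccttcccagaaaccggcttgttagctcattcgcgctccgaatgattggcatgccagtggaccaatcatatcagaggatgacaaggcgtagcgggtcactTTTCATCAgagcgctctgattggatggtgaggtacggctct
Gars, chr6:55037751-55038050, + strand: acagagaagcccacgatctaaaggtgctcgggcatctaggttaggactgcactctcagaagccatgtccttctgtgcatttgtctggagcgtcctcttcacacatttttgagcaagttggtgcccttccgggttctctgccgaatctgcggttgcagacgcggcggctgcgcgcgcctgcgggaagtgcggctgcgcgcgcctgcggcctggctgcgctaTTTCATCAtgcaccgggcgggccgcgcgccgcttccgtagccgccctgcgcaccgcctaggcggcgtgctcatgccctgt

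Libraries of sorted cells held 8559897 to 21138649 counts, and those of BM 12107504 to 26225431. Protein-coding genes took 37.3 to 94.6% of the counts in sorted cells, 1.82 to 3.71% in BM polysomal and 0.232 to 0.291% in BM total libraries. The 33 members together therefore had 9972 to 46678 counts a library in sorted cells, but 967 to 2388 in BM polysomal and 127 to 218 in BM total RNA. Levels are given as CPM, read counts scaled to a common library size that the trimmed mean of M values (TMM) sets; on that scale 1 CPM stood for 0.472 to 0.611 counts in BM total libraries and for 18 to 110 in sorted ones. The sort labels were not mirrored by Ly6g, the antigen's own mRNA, at 1.43 to 11.7 CPM in LY6G and 1.85 to 4.27 CPM in LY6C polysomal RNA. The neutrophil marker sums of the 2 sorted populations also overlapped, so the populations are called by their labels. Markers of erythroid cells summed to at most 6.77 CPM in sorted libraries, against 291 to 830 CPM in BM, and markers of stroma to at most 4.93 CPM, against 1975 to 6786 CPM. In these bulk samples, fewer cells of a type and less RNA per cell cannot be told apart.

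In sorted cells the cytosolic enzymes were the abundant set. Per kilobase of the principal transcript, all 19 cytosolic members stood above all 14 mitochondrial ones in polysomal RNA of both LY6G and LY6C cells. In total RNA the order was the same except near the border, where Cars2 and Iars2, the cysteinyl and isoleucyl mitochondrial enzymes, ranked 18th and 20th of 33 and Tars ranked 21st in both populations. In LY6G polysomal RNA the highest were Gars, the glycyl enzyme, at 13.5 ± 2.54 CPM per kb (SD, n = 3), Nars, the asparaginyl enzyme, at 11.5 ± 1.91, and Vars, the valyl enzyme, at 7.74 ± 3.12. In LY6C polysomal RNA the same 3 led at 16.5 ± 4.20 for Gars, 21.9 ± 8.64 for Nars and 17.7 ± 8.98 for Vars, and these neighbours did not differ beyond their spread. The lowest were Wars2 and Mars2, the mitochondrial tryptophanyl and methionyl enzymes, between 0.233 ± 0.0522 and 0.333 ± 0.177 CPM per kb in polysomal RNA. The ranges of these 2 overlapped in both populations. The Mars2 level was divided by a principal transcript of 11294 bases, 9473 of them after the coding part. Its rank per kilobase depends on that length. In BM polysomal RNA Vars led by a wide margin, at 39.3 ± 4.70 CPM per kb, above Nars at 23.4 ± 9.88 and Farsa, a subunit of the phenylalanyl enzyme, at 16.2 ± 2.99.

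**Figure D1:**
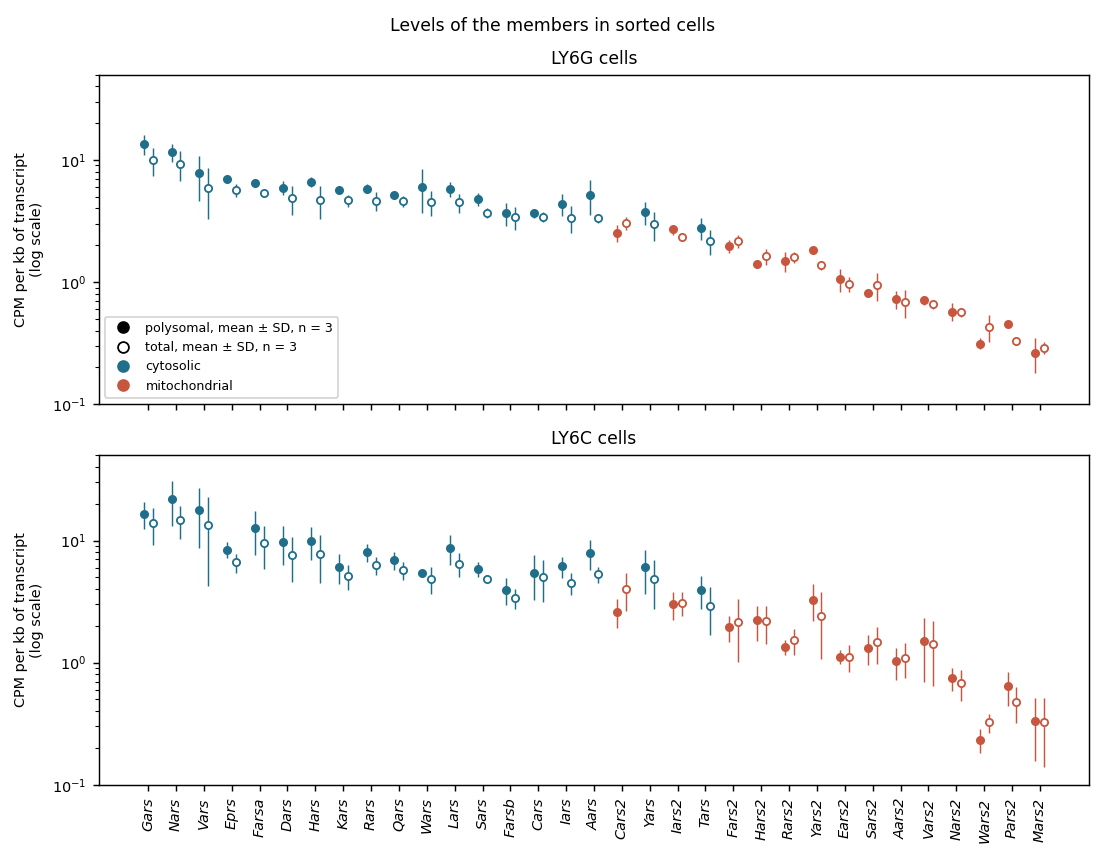
Levels of the 33 members in LY6G cells (top) and LY6C cells (bottom), in CPM per kilobase of principal transcript on a log axis, as mean ± SD of 3 libraries; filled points are polysomal and open points total RNA. Cytosolic members (blue) fill the left, with Gars, Nars and Vars highest, and mitochondrial members (red) the right.

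Polysomal minus total differences lay higher for the cytosolic than for the mitochondrial members. In LY6G cells the fitted polysomal minus total log2 difference was positive for 19 of 19 cytosolic members, with a median of 0.33 and a range of 0.10 to 0.64, and for 7 of 14 mitochondrial members, with a median of −0.04 and a range of −0.46 to 0.45. In LY6C cells it was positive for 19 of 19 cytosolic members, with a median of 0.35 and a range of 0.12 to 0.58, and again for 7 of 14 mitochondrial ones, with a median of −0.01 and a range of −0.62 to 0.44. The median of all genes tested was 0.00 in LY6G and 0.01 in LY6C cells, and the mitochondrial members lay on both sides of it. No single member passed the test: edgeR's quasi-likelihood test with Benjamini-Hochberg adjustment called 0 members and 0 of all 14181 genes (0%) in either population. At an unadjusted p under 0.05 it gave 1 member in LY6G cells, Aars, where 1.79% of all genes passed, and 0 in LY6C cells, where 3.05% did; DESeq2 called 0 members. The submitters describe 3 independent biological replicates, without naming the cultures or animals behind each sorted library, so the p-values may measure only the spread between these libraries.

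**Figure D2:**
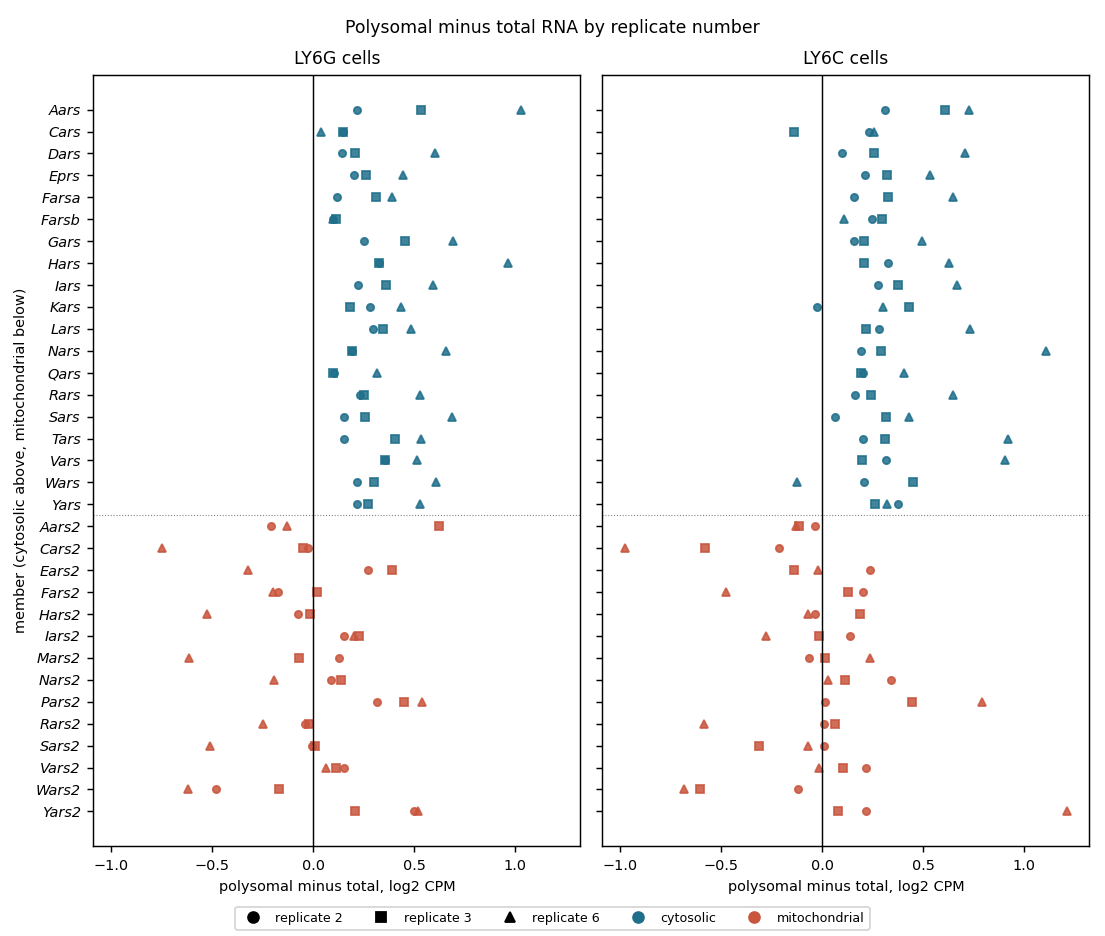
Polysomal minus total log2 CPM of each member in LY6G cells (left) and LY6C cells (right); each point is 1 replicate number, whose polysomal and total libraries were set against each other. Cytosolic members (blue, upper 19) lie right of 0 in nearly every pair, and mitochondrial members (red, lower 14) fall on both sides.

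The same split appeared within each replicate number. Polysomal and total libraries of the same number deviated together from their group means, with correlations of 0.557 to 0.737, so each number was also taken as a pair. In LY6G cells 19, 19 and 19 of 19 cytosolic members were higher in the polysomal library of numbers 2, 3 and 6, and in LY6C cells 18, 18 and 18; the mitochondrial counts were 7, 9 and 4 of 14 in LY6G and 9, 8 and 4 in LY6C cells. Over all 6 pairs, 16 of 19 cytosolic members (84.2%) were higher in every polysomal library, against 2 of 14 mitochondrial members and 30.6% of 4237 protein-coding genes with a mean over 10 CPM in sorted cells. The cytosolic exceptions were Cars, Kars and Wars, each positive in 5 of 6. The 6 pairs are 3 replicate numbers in 2 populations. Same-numbered LY6G and LY6C libraries also deviated together, with correlations of 0.267 to 0.587, so these cannot be taken as 6 independent repeats. Of the mitochondrial members 11 lay at 1 to 5 CPM and 2 at 5 to 10 CPM, below the reference genes, as did 2 cytosolic members at 5 to 10 CPM. The size of the gap depended on the number. The cytosolic median was 0.22, 0.27 and 0.53 in numbers 2, 3 and 6 of LY6G cells and 0.21, 0.29 and 0.63 in those of LY6C cells, while the mitochondrial medians were 0.04, 0.07 and −0.22 in LY6G and 0.01, 0.04 and −0.07 in LY6C cells. Number 6 was also the pair in which genes in general spread most: the interquartile range over the same 4237 genes was 0.73 in LY6G and 0.97 in LY6C cells, against 0.23 to 0.35 in the other pairs. The cytosolic minus mitochondrial gap was 0.75 in number 6 of LY6G and 0.70 in that of LY6C cells, against 0.18 to 0.25 in the other pairs. What the wider spread of number 6 contributed was not tested, and the direction was the same in the other 2 numbers.

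Genes in general of the same level or coding length had smaller medians than the cytosolic members. Protein-coding genes at 10 to 30 CPM had a median polysomal minus total difference of 0.05 in LY6G and 0.03 in LY6C cells, where 12 cytosolic members had medians of 0.33 and 0.35. At 30 to 100 CPM the medians were 0.13 for genes in general in both populations, and 0.39 in LY6G and 0.40 in LY6C cells for 5 cytosolic members. Over 100 CPM, where no member lay, the 255 genes had medians of 0.30 in LY6G and 0.35 in LY6C cells. Among coding lengths of 1500 to 2000 bases, genes in general had medians of 0.01 in both, 9 cytosolic members 0.32 in LY6G and 0.35 in LY6C cells, and 6 mitochondrial members −0.17 and −0.06. Coding length had a median of 1980 bases (1443 to 4536) in the cytosolic and 1562 bases (1080 to 3180) in the mitochondrial set. Within the cytosolic set Spearman's rho of the polysomal minus total difference with coding length was 0.12 in LY6G and 0.32 in LY6C cells over 19 members, which share their libraries; this is a description.

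Aars, which charges alanine, had the largest positive cytosolic difference in LY6G cells, and in LY6C cells shared it with Nars, to 2 decimals. Its level was 20.4, 29.6 and 39.3 CPM in LY6G polysomal libraries 2, 3 and 6, against 17.6, 20.5 and 19.2 CPM in total ones, and 31.2, 49.9 and 55.3 CPM in LY6C polysomal libraries, against 25.1, 32.7 and 33.3 CPM. The total libraries were close together, and the polysomal ones higher in each number, but the lowest polysomal library overlapped the total ones. The fitted difference was 0.64 ± 0.29 (SE) in LY6G and 0.58 ± 0.29 in LY6C cells, with an edgeR adjusted p of 1 in both. When protein-coding counts were thinned to the shallowest library, it was −0.0085 for Aars and −0.16 for Hars in LY6G cells. Hars, the histidyl enzyme, had 12.8, 14.5 and 12.2 CPM in LY6G polysomal and 10.2, 11.5 and 6.25 CPM in LY6G total libraries, groups that did not overlap (0.50 ± 0.37, edgeR adjusted p = 1). Wars, the tryptophanyl enzyme and a gene that interferon induces, had 8.68, 8.38 and 16 CPM in LY6G polysomal, against 7.46, 6.80 and 10.4 CPM in LY6G total libraries (0.42 ± 0.32, edgeR adjusted p = 1). Nars had 34.2, 65.6 and 80.6 CPM in LY6C polysomal and 29.9, 53.6 and 37.4 CPM in LY6C total libraries, a fitted difference of 0.58 ± 0.41 (edgeR adjusted p = 1) with the widest gap in number 6. The 3 libraries of each fraction were apart, polysomal higher, for 7 cytosolic members in LY6G cells (Eprs, Farsa, Hars, Kars, Qars, Rars and Sars) and 1 in LY6C cells (Sars), where 8.52% of all genes in LY6G and 3.67% in LY6C cells were. Hars and Hars2 overlap head to head on opposite strands, and Wars overlaps Wdr25 on the opposite strand. Aars overlaps Exosc6 on the same strand, so a strand setting would not separate their shared reads. The strand setting of the counting was not given in the sources used here, so some reads could be shared at each of these genes.

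The 7 listed enzymes of the multi-synthetase complex (Eprs, Iars, Lars, Qars, Kars, Rars and Dars) had medians of 0.30 in LY6G and 0.35 in LY6C cells, beside 0.33 and 0.35 of all 19 cytosolic members, which include them. No test was made between them. Gars and Kars, which also supply the mitochondrion, went with the cytosolic set, at 0.45 and 0.30 in LY6G cells and 0.26 and 0.24 in LY6C cells.

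Of the 14 mitochondrial members, 2 were higher and 2 lower in the polysomal library of all 6 pairs, and these were picked out after their values were seen. Cars2 was lower in the polysomal library of all 6 pairs, with 5.40, 5.09 and 3.93 CPM in LY6G polysomal, against 5.50, 5.28 and 6.64 CPM in LY6G total libraries, and 4.05, 6.50 and 4.34 CPM in LY6C polysomal, against 4.71, 9.76 and 8.60 CPM in LY6C total libraries. Its fitted difference in LY6C cells was −0.62 ± 0.42 (edgeR adjusted p = 1). Wars2 was also lower in all 6 pairs, at −0.46 ± 0.41 in LY6G and −0.47 ± 0.43 in LY6C cells. Yars2 and Pars2, the tyrosyl and prolyl enzymes, were higher in all 6, at 0.41 ± 0.50 and 0.45 ± 0.43 in LY6G and 0.44 ± 0.51 and 0.43 ± 0.45 in LY6C cells; both were also apart between fractions in LY6G cells. Among the 4237 reference genes, which average over 10 CPM where these 4 members lie lower, 1297 (30.6%) were higher and 411 lower in all 6 pairs. Cars2 shares its locus with Naxd on the opposite strand, and Pars2 was near 1 CPM. For the difference between populations in polysomal minus total RNA, edgeR called 0 members and 0% of all genes, DESeq2 called 0 members, and 0 members had an unadjusted p under 0.05, as 0.0494% of all genes did. The 3 lowest p were those of Cars2 (0.35 ± 0.60), Wars (0.27 ± 0.46) and Iars2 (0.23 ± 0.48), each with an edgeR adjusted p of 1.00.

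The summed level gave the same contrast per library. Cytosolic members summed to 347 ± 41.6 CPM in LY6G polysomal, against 271 ± 49.1 CPM in LY6G total RNA, and to 523 ± 131 CPM in LY6C polysomal, against 401 ± 112 CPM in LY6C total RNA (SD, n = 3). Mitochondrial members summed to 50.9 ± 4.08 and 50.8 ± 2.67 CPM in LY6G polysomal and total RNA, and to 64.5 ± 13.6 and 66.9 ± 15.7 CPM in LY6C polysomal and total RNA. The ratio of the sums was 6.36, 7.13 and 6.97 in LY6G polysomal libraries 2, 3 and 6, against 5.66, 6.29 and 4.15 in total ones, and 7.25, 8.09 and 8.87 in LY6C polysomal libraries, against 6.56, 6.53 and 4.98 in total ones. In both populations the lowest polysomal library was above the highest total library. BM polysomal libraries gave 12.7, 9.51 and 6.55, against 4.23, 4.74 and 6.47 in BM total, from 92 to 195 mitochondrial counts a library in polysomal and 17 to 38 in total RNA.

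**Figure D3:**
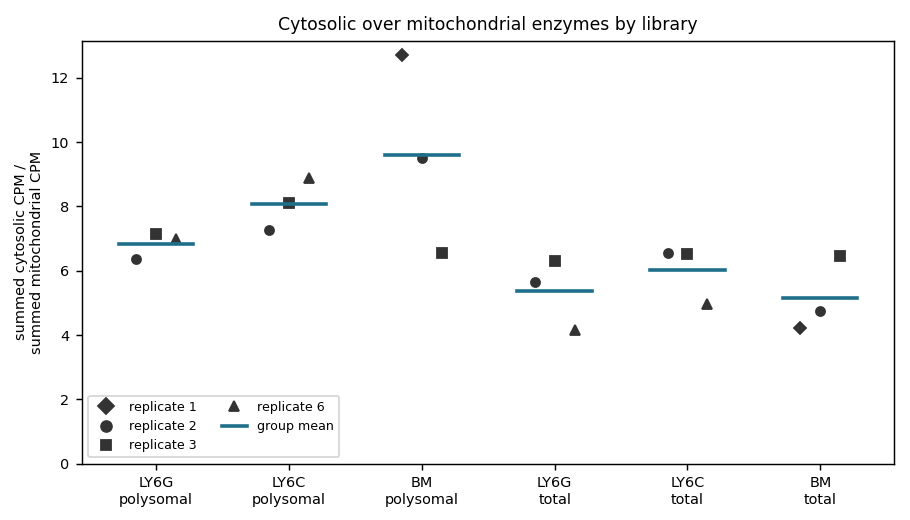
Ratio of summed cytosolic to summed mitochondrial CPM in each of the 18 libraries, by group, with polysomal groups left and total groups right; symbols give the replicate number and bars the mean of 3 libraries. In LY6G and LY6C cells every polysomal library lies above every total library of the same population; in BM the lowest polysomal library nearly meets the highest total one.

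Set against LY6C cells, LY6G cells had lower fitted levels of most members of both classes in both fractions, with no member past the test. In polysomal RNA the LY6G minus LY6C difference was negative for 18 of 19 cytosolic members, with a median of −0.51, and for 11 of 14 mitochondrial ones, with a median of −0.36. In total RNA it was negative for 18 of 19, with a median of −0.47, and for 12 of 14, with a median of −0.40. All genes tested had medians of −0.03 in polysomal and 0.00 in total RNA. With median-ratio factors those moved to 0.13 and 0.15, and the cytosolic medians to −0.33 and −0.30. edgeR called 0 members and 0 of all genes (0%) in either fraction, DESeq2 called 0 members, and 5 members in polysomal and 3 in total RNA had an unadjusted p under 0.05, where 5.87% of all genes in polysomal and 3.98% in total RNA did. Within replicate numbers 2, 3 and 6, 18, 19 and 17 of 19 cytosolic members were lower in LY6G polysomal RNA, and 17, 18 and 18 in total RNA. Of genes over 10 CPM, 64.7%, 52.6% and 59.5% were lower in polysomal and 65.3%, 52.4% and 56.4% in total RNA. The 3 libraries a group were apart, LY6G lower, for 8 members in polysomal RNA (7.05% of all genes) and 5 in total RNA (5.28%). Wars2 was the 1 member higher in LY6G with groups apart in polysomal RNA (7.74% of all genes), at 1.28, 1.32 and 1.54 CPM in LY6G against 1.25, 0.787 and 1.04 CPM in LY6C libraries.

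The valyl enzymes led this list. Vars (chr17:35000987-35016322, + strand, GRCm38) had 29.5, 46.0 and 20.5 CPM in LY6G polysomal libraries 2, 3 and 6, against 40.6, 114 and 65.1 CPM in LY6C ones, and 23.1, 35.9 and 14.4 CPM in LY6G total libraries, against 32.6, 99.1 and 34.8 CPM. Vars2 had 2.97, 3.44 and 3.00 CPM in LY6G polysomal, against 3.54, 10.6 and 5.85 CPM in LY6C polysomal libraries. Both were lower in LY6G at every number, and LY6C number 3 was the highest sorted library for both. The fitted LY6G minus LY6C differences were −1.19 ± 0.45 for Vars and −1.08 ± 0.43 for Vars2 in polysomal RNA (edgeR adjusted p = 0.841 for both), and −1.18 ± 0.45 and −1.10 ± 0.44 in total RNA (edgeR adjusted p = 1 for both). Without LY6C number 3 they were −0.72 for Vars and −0.57 for Vars2 in polysomal RNA, and −0.44 and −0.58 in total RNA. With the replicate number as a block the edgeR adjusted p was 0.131 for Vars and 0.191 for Vars2 in polysomal RNA. The proliferation marker Mki67 was also highest in LY6C number 3, at 154 CPM in polysomal RNA, against 52.0 and 77.0 CPM in the other LY6C and 27.0 to 89.6 CPM in LY6G polysomal libraries; its part in the result was not tested. LY6C total number 3 also had the lowest protein-coding share of the sorted libraries, 37.3%. Farsa, at 11, 12.8 and 11.9 CPM in LY6G against 13.6, 31.4 and 23.8 CPM in LY6C polysomal libraries, was the third by p (−0.94 ± 0.41, edgeR adjusted p = 0.841), and Aars the third in total RNA (−0.67 ± 0.29, edgeR adjusted p = 1).

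**Figure D4:**
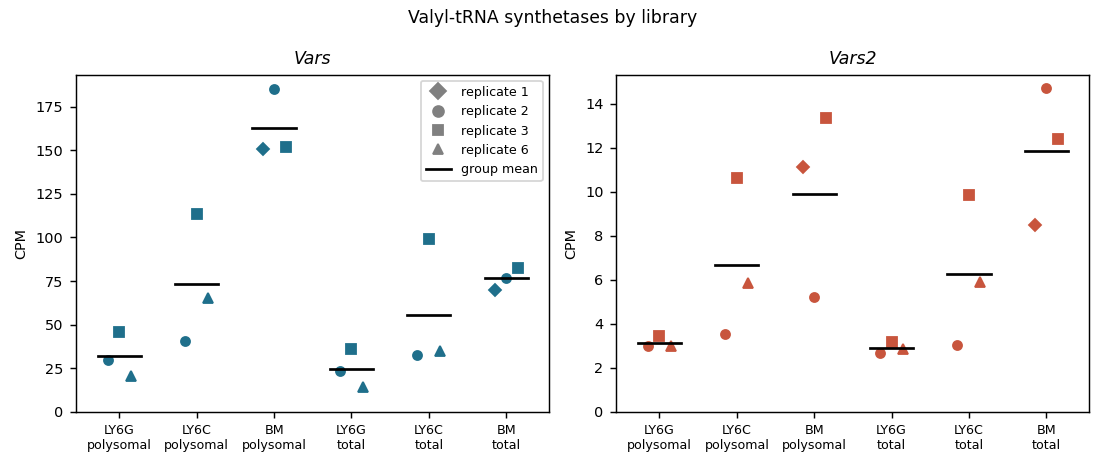
Levels of Vars (left) and Vars2 (right) in each of the 18 libraries in CPM, by group, polysomal groups left and total groups right; symbols give the replicate number and bars the mean of 3 libraries. The LY6G mean is the lowest of each fraction in both panels; for Vars, BM polysomal libraries at 151 to 185 CPM lie above all others.

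Against BM, single members passed the test, in both directions. LY6G and LY6C cells were set against the same 3 BM libraries of each fraction, so the 2 comparisons share their controls. In polysomal RNA, LY6G cells had 3 members higher and 4 lower, and LY6C cells 5 higher and 0 lower, by edgeR at an adjusted p under 0.05. Over all genes 22.1% were higher and 15.3% lower in LY6G cells, and 20.2% higher and 11.2% lower in LY6C cells, with medians of 0.45 and 0.52 on the log2 scale. Of 33 members, the counts called were no larger a share than those of genes in general. The cytosolic median was 0.00 in LY6G and 0.30 in LY6C cells, and the mitochondrial median −0.38 and 0.02. With median-ratio factors the all-gene medians were 0.68 in LY6G and 0.58 in LY6C cells, and the members called 5 higher and 3 lower, and 6 higher and 1 lower. On protein-coding genes alone the medians were 0.11 and 0.16, with 3 higher and 5 lower members in LY6G and 3 higher and 1 lower in LY6C cells. DESeq2, another model, gave medians of −0.21 and 0.00, with 6 higher and 4 lower members in LY6G and 7 higher and 1 lower in LY6C cells. Differences are best read against these shifts.

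**Figure D5:**
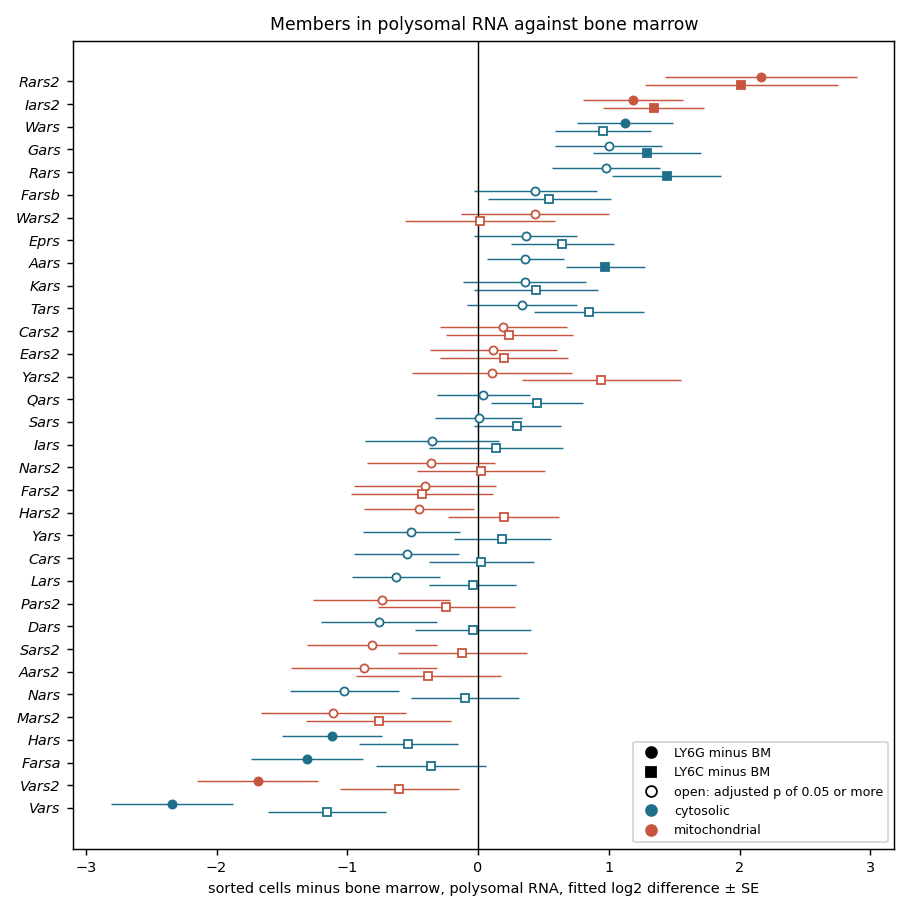
Fitted log2 difference ± SE of each member in polysomal RNA of LY6G cells (circles) and LY6C cells (squares) against the same 3 BM libraries, ordered by the LY6G value; filled symbols have an edgeR adjusted p under 0.05. Rars2 is highest and Vars lowest in LY6G cells, and the mitochondrial members (red) are spread through the order.

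Vars gave the clearest difference. It had 29.5, 46.0 and 20.5 CPM in LY6G polysomal libraries, against 151, 185 and 152 CPM in BM ones, a log2 difference of −2.34 ± 0.47 (edgeR adjusted p = 0.000597). That call held in every alternative run, and the difference ranged between −2.67 and −2.08. In LY6C cells Vars was at −1.15 ± 0.45 (edgeR adjusted p = 0.0573), with groups apart. Vars2 fell in LY6G cells too (−1.69 ± 0.46, edgeR adjusted p = 0.00738). It had 2.97, 3.44 and 3.00 CPM there, against 11.1, 5.20 and 13.4 CPM in BM polysomal libraries. The Vars2 call held in every alternative that tested the gene, which thinning left out. Farsa (−1.31 ± 0.43, edgeR adjusted p = 0.0209) and Hars (−1.12 ± 0.38, edgeR adjusted p = 0.0263) completed the lower calls in LY6G cells. Hars had 12.8, 14.5 and 12.2 CPM in LY6G and 34.8, 24.9 and 25.7 CPM in BM polysomal libraries. The Hars call was lost with median-ratio factors (edgeR adjusted p = 0.0574), with no filter (0.0963), with the replicate block (0.103), after thinning (0.0618), and without BM number 1 (0.104) or any 1 of the LY6G libraries (0.0567 to 0.0805). Farsa lost its call without BM number 2 (0.0743) or any 1 of the LY6G libraries (0.0507 to 0.0730).

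The members higher than in BM polysomal RNA came from both classes. Iars2, at 13.9, 16.3 and 14.0 CPM in LY6G and 15.9, 20.9 and 12.6 CPM in LY6C polysomal libraries, against 4.85, 7.52 and 7.38 CPM in BM ones, rose by 1.19 ± 0.38 in LY6G (edgeR adjusted p = 0.0200) and 1.34 ± 0.39 in LY6C cells (edgeR adjusted p = 0.0115). Rars, the cytosolic arginyl enzyme, had 13.6, 18.5 and 18.5 CPM in LY6C against 5.99, 6.36 and 6.32 CPM in BM polysomal libraries, a rise of 1.44 ± 0.41 (edgeR adjusted p = 0.0116). Both populations stood above BM in every library for Iars2, and so did LY6C cells for Rars. Without BM number 1 the adjusted p was 0.0936 for Iars2 in LY6G, 0.0787 for Iars2 in LY6C and 0.0515 for Rars in LY6C cells, and without LY6G number 3 it was 0.0554 for Iars2 in LY6G cells. Iars2 overlaps Rab3gap2 on the opposite strand. Rars2, its mitochondrial counterpart, had 5 counts over the 3 BM polysomal libraries, all in 1 of them, and 2.17 ± 0.73 in LY6G (edgeR adjusted p = 0.0267) and 2.01 ± 0.74 in LY6C cells (edgeR adjusted p = 0.0452) rest on those counts; leaving out BM number 1 ended both calls (edgeR adjusted p = 0.130 and 0.221), as did BM number 2 (0.0774 and 0.137), the replicate block (0.126 and 0.192) and fitting the compared groups alone (0.0740 and 0.164). In LY6C cells Gars (1.29 ± 0.41, edgeR adjusted p = 0.0210) and Aars (0.97 ± 0.30, edgeR adjusted p = 0.0177) also rose; the Aars libraries were 31.2, 49.9 and 55.3 CPM in LY6C and 21.7, 26.6 and 21.4 CPM in BM polysomal RNA. The Aars call was lost with no filter (edgeR adjusted p = 0.0581), with at least 50 counts required (0.0556), on protein-coding genes alone (0.0509), with only the compared groups fitted (0.0890), after thinning (0.134), and without LY6C number 6 (0.0558) or BM number 1 (0.0768) or 3 (0.0746). The Gars call was lost after thinning (edgeR adjusted p = 0.0961) and without LY6C number 3 (0.0670) or any 1 of the BM libraries (0.0579 to 0.0859). In LY6G cells Wars rose by 1.12 ± 0.37 (edgeR adjusted p = 0.0211), at 8.68, 8.38 and 16 CPM against 6.28, 4.05 and 4.57 CPM in BM, and lost the call without LY6G number 6 (edgeR adjusted p = 0.133) or BM number 2 (0.0592) or 3 (0.0623). Markers of erythroid, B-lineage and stromal RNA were higher in BM than in sorted cells, and the part of such RNA in these differences was not tested.

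In total RNA the BM libraries held 127 to 218 member counts each, and most calls of members were lost in at least 1 alternative; the cause was not tested. LY6G cells had 5 members higher and 3 lower, where 21.5% of all genes were higher and 9.39% lower, and LY6C cells 9 higher and 1 lower, where 20.5% were higher and 7.4% lower. In this fit all genes had medians of 1.63 in LY6G and 1.64 in LY6C cells. The cytosolic medians were lower, at 0.79 and 1.31, and so were the mitochondrial ones, at 1.35 and 1.34. On protein-coding genes alone the all-gene medians were 0.88 and 0.94, the cytosolic medians 0.56 and 1.06 and the mitochondrial medians 1.11 and 1.09. With DESeq2 the all-gene medians were −0.86 and −0.37, below the cytosolic (0.64 and 0.98) and mitochondrial medians (1.05 and 0.99). Their order thus depended on the setting. With median-ratio factors the members called turned to 1 higher and 4 lower in LY6G and 4 higher and 1 lower in LY6C cells. Members called lower are given before those called higher. In LY6G cells Vars2 had 2.66, 3.19 and 2.87 CPM, against 8.47, 14.7 and 12.4 CPM in BM total libraries. The difference was −2.05 ± 0.56 (edgeR adjusted p = 0.00864). That call held in every alternative that tested Vars2, which thinning left out. Vars had 23.1, 35.9 and 14.4 CPM, against 69.9, 76.9 and 82.6 CPM (−1.65 ± 0.47, edgeR adjusted p = 0.0119), and lost its call only without LY6G number 6 (edgeR adjusted p = 0.0579). Aars2, the mitochondrial alanyl enzyme, was called lower in LY6G (−2.40 ± 0.63, edgeR adjusted p = 0.00658) and LY6C cells (−1.73 ± 0.62, edgeR adjusted p = 0.0442), but its BM total libraries held 11, 8 and 0 counts. Without BM number 1 both calls ended (edgeR adjusted p = 0.107 in LY6G and 0.345 in LY6C cells). The LY6C call was also lost without LY6C number 2 (edgeR adjusted p = 0.127) or BM number 2 (0.107). It was lost as well with the replicate block (edgeR adjusted p = 0.0815) and with only the compared groups fitted (0.0761).

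Among members called higher in total RNA, Eprs, the glutamyl-prolyl enzyme that spans 2 amino acids, had 28.7, 30.4 and 24.1 CPM in LY6G and 31.3, 38.6 and 27.3 CPM in LY6C total libraries, against 14.8, 0 and 6.20 CPM in BM ones (7, 0 and 3 counts). It rose by 2.08 ± 0.53 in LY6G (edgeR adjusted p = 0.00565) and 2.30 ± 0.53 in LY6C cells (edgeR adjusted p = 0.00299). Both calls held when each library was left out in turn, and both were lost when protein-coding counts were thinned to the shallowest library (edgeR adjusted p = 0.0955 in LY6G and 0.0958 in LY6C cells); the LY6C call was also lost when only the compared groups were fitted (0.0533). In LY6C cells Cars (2.08 ± 0.62, edgeR adjusted p = 0.0158), Gars (1.83 ± 0.51, edgeR adjusted p = 0.0102), Iars2 (1.74 ± 0.52, edgeR adjusted p = 0.0158), Qars (1.67 ± 0.51, edgeR adjusted p = 0.0183) and Lars (1.32 ± 0.43, edgeR adjusted p = 0.0255) also rose, each on 6 to 16 BM counts. In LY6G cells Gars (1.36 ± 0.51, edgeR adjusted p = 0.0477) and Qars (1.36 ± 0.51, edgeR adjusted p = 0.0489) did. All 5 of the LY6C calls were lost when only the 2 compared groups were fitted, and so were both LY6G calls. In LY6C cells the calls held in 10 of 13 alternatives for Cars and Iars2 and 10 of 14 for Gars. Qars held in 9 of 13 and Lars in 4 of 14. In LY6G cells Gars held in 5 of 14 and Qars in 2 of 13. Rars2, Ears2, Yars2 and Pars2 had 0 counts in all 3 BM total libraries. Pars2 was under the 3-count level in LY6G and LY6C cells too, so no fold is given for it. Against 3 counts over the BM group, 1.91 CPM, Rars2 was at least 1.55-fold higher in LY6G and 1.49-fold in LY6C cells, Yars2 at least 1.12-fold and 1.64-fold, and Ears2, the glutamyl enzyme, at least 1.02-fold and 1.01-fold. edgeR called Rars2 and Ears2 in LY6G (adjusted p = 0.0397 and 0.0454) and all 3 in LY6C cells (adjusted p = 0.0462, 0.0497 and 0.0377 for Rars2, Ears2 and Yars2). DESeq2 called none of these 3. In LY6C cells the edgeR calls held in 1, 2 and 4 of 13 alternatives for Rars2, Ears2 and Yars2. In LY6G cells those of Rars2 and Ears2 held in 3 and 2 of 13.

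Within BM, polysomal minus total differences were positive for 18 of 19 cytosolic members, with a median of 1.09, and for 9 of 14 mitochondrial members, with a median of 0.51, beside 0.55 for all genes. edgeR called 2 members higher in the polysomal fraction, where it called 2.6% of all genes higher and 0.797% lower, and 0 members lower. Eprs had 31.7, 19.1 and 28.1 CPM in BM polysomal, against 14.8, 0 and 6.20 CPM in BM total libraries (2.01 ± 0.54, edgeR adjusted p = 0.0459). Lars, the leucyl enzyme, had 49.6, 32.4 and 24.6 CPM, against 16.9, 8.18 and 6.20 CPM (1.79 ± 0.43, edgeR adjusted p = 0.0286), and Cars followed at 2.17 ± 0.63 (edgeR adjusted p = 0.0575). Neither call held with median-ratio factors, which moved the all-gene median to 0.13 and gave adjusted p of 0.149 for Eprs and 0.112 for Lars. The cytosolic minus mitochondrial gap of 0.57 ranged over 0.36 to 1.21 in 7 other settings, but turned to −0.28 without BM total number 3. The class split seen in sorted cells was thus not established in BM, and the part of depth was not tested.

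Genes around the synthetases were followed by lists. In polysomal minus total RNA edgeR called 0 of their members in sorted cells. Of the scaffold and tRNA partner list, 13 of 14 genes were tested, with medians of −0.11 in LY6G and 0.30 in LY6C cells. Cytosolic elongation factors had medians of 0.10 in LY6G and 0.41 in LY6C cells over 6 genes, and mitochondrial translation factors 0.05 and 0.22 over 11. No test was made between the lists.

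The amino acid response list held Atf4, whose fitted level was lower in polysomal than in total RNA. Atf4 had 56.2, 56.5 and 35.6 CPM in LY6G polysomal, against 75.6, 66.3 and 68.0 CPM in LY6G total libraries, and 46.8, 49.7 and 23.7 CPM in LY6C polysomal, against 67.2, 60.9 and 52.3 CPM in LY6C total libraries. Its groups did not overlap in either population, polysomal lower, at −0.50 ± 0.35 in LY6G and −0.59 ± 0.35 in LY6C cells (edgeR adjusted p = 1 for both), where 9.06% of all genes in LY6G and 4.1% in LY6C cells were apart in that direction. Asns, asparagine synthetase and an ATF4 target, had 0.41 ± 0.35 and 0.32 ± 0.35 (edgeR adjusted p = 1 for both). Against BM, Atf4 rose in polysomal RNA by 1.71 ± 0.37 in LY6G (edgeR adjusted p = 0.00135) and 1.40 ± 0.37 in LY6C cells (edgeR adjusted p = 0.00686), and in total RNA by 2.0 ± 0.41 (edgeR adjusted p = 0.00103) and 1.78 ± 0.41 (edgeR adjusted p = 0.00301). Asns did not pass the test against BM, at −0.29 ± 0.38 in LY6G and 0.11 ± 0.38 in LY6C polysomal RNA.

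Of the 24 tested genes of the amino acid response list, 9 rose and 2 fell in LY6G and 9 rose and 1 fell in LY6C polysomal RNA against BM; in total RNA 10 rose and 1 fell in LY6G and 11 rose and 1 fell in LY6C cells. Of all genes 22.1% rose and 15.3% fell in LY6G and 20.2% and 11.2% in LY6C polysomal RNA, and 21.5% and 9.39% in LY6G and 20.5% and 7.4% in LY6C total RNA. Among the genes called in LY6G polysomal RNA, the largest differences included Slc7a11, the cystine transporter, at 5.81 ± 0.81 (edgeR adjusted p = 5.1e-05, on 19, 4 and 0 BM counts), the transcription factor Cebpb at 3.42 ± 0.43 (edgeR adjusted p = 6.2e-06), and Slc3a2, the shared heavy chain of amino acid exchangers, at 2.86 ± 0.49 (edgeR adjusted p = 0.00016). Trib3, a pseudokinase, was also called (edgeR adjusted p = 8.9e-05), at 4.21, 4.95 and 11 CPM in LY6G polysomal libraries, against 1 count over the 3 BM ones. The glutamine transporter Slc1a5 was the 1 that fell in all 4 comparisons with BM, by 2.09 ± 0.43 in LY6G polysomal RNA (edgeR adjusted p = 0.00088). As background, Cebpb also serves myeloid differentiation and Slc7a11 the antioxidant response. Of the 10 genes listed as integrated stress response sensors, eIF2 kinases such as GCN2 among them, 3 rose and 1 fell in polysomal RNA of each population. These counts were near the 22.1% and 15.3% of all genes in LY6G and the 20.2% and 11.2% in LY6C cells. Those that rose were Eif2ak2, the kinase of double-stranded RNA, by 4.14 ± 0.60 in LY6G (edgeR adjusted p = 2.4e-05) and 3.80 ± 0.60 in LY6C cells (edgeR adjusted p = 7.4e-05), on 8, 3 and 0 BM counts, GCN2 (Eif2ak4) by 1.60 ± 0.49 and 1.68 ± 0.49 (edgeR adjusted p = 0.0136 in LY6G and 0.0120 in LY6C cells), and Impact, a GCN2 inhibitor, by 2.32 ± 0.48 and 1.67 ± 0.48 (edgeR adjusted p = 0.00104 in LY6G and 0.0131 in LY6C cells). Eif2ak3, the kinase of endoplasmic reticulum stress, fell by 1.47 ± 0.36 and 0.95 ± 0.35 (edgeR adjusted p = 0.00291 in LY6G and 0.0441 in LY6C cells). Of the partners, Aimp1, a scaffold of the multi-synthetase complex, fell by 1.32 ± 0.40 (edgeR adjusted p = 0.0141) and Mtfmt, which formylates the mitochondrial initiator tRNA, by 1.65 ± 0.51 (edgeR adjusted p = 0.0163) in LY6G polysomal RNA against BM. Of the mitochondrial factors Tsfm, an elongation factor, fell by 2.59 ± 0.44 in LY6G (edgeR adjusted p = 0.000122) and 1.46 ± 0.42 in LY6C polysomal RNA (edgeR adjusted p = 0.0120), and Mtrf1l by 1.66 ± 0.50 in LY6G cells (edgeR adjusted p = 0.0127), while Guf1 rose by 1.82 ± 0.67 in LY6C cells (edgeR adjusted p = 0.0440). Of the elongation factors Eef1a1 fell by 1.64 ± 0.42 in LY6G polysomal RNA (edgeR adjusted p = 0.00483), and Eif5a rose by 1.06 ± 0.33 in LY6C polysomal RNA (edgeR adjusted p = 0.0176).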

How the data were processed

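Whole-number read counts per gene in 18 libraries were used as deposited. Per the labels' protocols, polysomal fractions came from sucrose gradients and libraries from a stranded total RNA kit with ribosomal RNA depletion. The submitters' processing notes name FastQC, STAR 2.5.2a, DESeq2 and the mouse build GRCm38 (mm10). The counting tool and its strand setting are not given in the sources used here, so genes that overlap can share counts. Groups follow the labels. No column of the table was left out.

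From the deposited counts, genes were kept by filterByExpr (minimum count 10), scaled by TMM and fitted with edgeR 4.0.16 in R 4.3.3 (robust quasi-likelihood, 6 group means over all 18 libraries, no block). Benjamini-Hochberg adjustment ran over all 14181 genes, with a threshold of 0.05. DESeq2 1.42.0 was an alternative, beside other scalings and filters, a fit with the replicate number as a block, and fits without 1 library at a time. The fits were tested on simulated data. With 3 libraries a group, a count of 0 calls does not show that no member differed. Members that passed the test (up to 20 a comparison) and the 3 with the lowest p are named with their statistics; from the other lists up to 4 called genes a comparison, largest difference first, plus Atf4 and Asns. Further genes given with values (Yars2, Pars2, Wars2 and Slc1a5 among them) were chosen after their values were seen. The members and lists were chosen with earlier results of these data known.

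Deviations from group means in same-numbered libraries correlated at 0.557 to 0.737 between polysomal and total RNA. Between LY6G and LY6C cells they correlated at 0.267 to 0.587. All were over 0.1, the threshold set for pairing, so the numbers were used to pair sorted libraries. Such a correlation cannot tell a shared culture or animal from other differences that go with the number. BM libraries correlated at 0.00 to 0.03 between fractions and were not taken as paired. Protein-coding genes took only 0.232 to 0.291% of counts in BM total libraries, so this correlation cannot show that the numbers do not pair.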

Additional observations from a re-analysis of the deposited data

How the results depend on the processing

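In the 5 comparisons among sorted cells, edgeR called 0 members in every alternative, and the replicate block changed no call there. In the comparisons that use BM libraries, 32 calls of 17 members were made, 2 of them between the BM fractions. Of the 32, 3 held in every alternative run that tested them, 5 held when each library was left out, and 0 changed direction. The number of members called was 7 for LY6G minus BM in polysomal RNA, 5 for LY6C minus BM in polysomal RNA, 8 for LY6G minus BM and 10 for LY6C minus BM in total RNA, and 2 for BM polysomal minus total. With the replicate block it was 9 for LY6G minus BM and 10 for LY6C minus BM in polysomal RNA. Between BM fractions it was 4 with the block. In total RNA it was 11 for each population with the block, 8 higher and 3 lower in LY6G and 11 higher and 0 lower in LY6C cells. The numbers were not shown to pair BM with sorted cells. Whether they pair the BM fractions could not be decided from the correlations. With median-ratio factors it was 5 and 5 in total RNA of LY6G and LY6C cells, and 0 between BM fractions. On protein-coding genes alone it was 5 and 6 in total RNA, and 1 between BM fractions, as with no filter on low counts. DESeq2 called 6 for LY6C minus BM in total and 8 in polysomal RNA. Fitting the compared groups alone gave 4 and 0 in total RNA of LY6G and LY6C cells, and 0 between BM fractions. Thinning, added after seeing the data, left 7 members and gave 1 and 1 in polysomal RNA and 2 and 1 in total RNA of LY6G and LY6C cells, and 0 between BM fractions. The cause of these moves was not tested, except that thinning and smaller fits use fewer counts or libraries.

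Leaving out 1 library gave 3 to 6 and 2 to 4 members in polysomal RNA of LY6G and LY6C cells against BM, 4 to 8 in total RNA of both, and 0 to 3 between BM fractions. The cytosolic minus mitochondrial median then ranged over −0.12 to 0.64 for LY6G minus BM in polysomal RNA (0.39 with all libraries), −0.94 to 0.46 for LY6C minus BM in total RNA (−0.02) and −0.28 to 0.78 between BM fractions (0.57). In sorted cells the polysomal minus total gap of 0.36 ranged over 0.18 to 0.50 in LY6G and 0.22 to 0.49 in LY6C cells. Directions turned for Aars (−0.0085) and Hars (−0.16) in LY6G polysomal minus total RNA after thinning, and for Wars in the difference between populations, which ranged over −0.095 to 0.50. BM total libraries, with 127 to 218 member counts, limit every comparison that uses them. Alternatives with sorted cells alone, and with the compared groups under a block, were also added after seeing the data.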
